A study of Mus musculus with 12 samples.

Results

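The data described here are those of 9 complement genes, C1qa, C1qb, C1qc, C4b, C3, Cfi, Serping1, Cd55 and Cd59a, out of 56748 gene entries in the deposited table of scaled counts. They were taken by gene symbol, since complement has been implicated in disease caused by loss of ABCA4, the transporter of photoreceptor outer segments that clears retinoid products. Retinas came from mice aged 2 months and of 2 genotypes, which together with 2 fractions gave 4 groups of 3 libraries each. The Abca4 knockout mice (Abca4Ko) were RiboTag; Abca4-/-; i75-Rod-Cre, and their littermate controls were RiboTag; i75-Rod-Cre, so that both genotypes carried the tagged ribosomal protein and the Cre transgene that switches it on in rods. All mice received cycloheximide by perfusion, a drug that stalls translating ribosomes in place. The retina libraries hold RNA of the total lysate, and the rod TRAP (translating ribosome affinity purification) libraries hold RNA pulled down with the tagged ribosomes of rods. The deletion is in the germ line and not limited to rods. Whether each library came from 1 mouse or from pooled mice is not given in the sources used here, so that the tests measure the spread between libraries.

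Complement is a cascade of plasma proteins that marks and lyses its targets. In the classical pathway C1q, assembled from the chains encoded by C1qa, C1qb and C1qc, recognises a surface and leads to cleavage of C4 and then of C3, the protein on which all pathways converge. Regulators hold the cascade back: C1 inhibitor (Serping1) blocks the proteases of the C1 complex, factor I (Cfi) cleaves C3b and C4b, decay-accelerating factor (Cd55) takes the C3 convertase apart, and CD59 (Cd59a) stops assembly of the membrane attack complex. In retina, C1q is known as a product of microglia, while photoreceptors and pigment epithelium carry regulators on their membranes.

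C1qb and C1qc were among the members near 0 in rod TRAP, and Cd59a was the only member at substantial levels there. Their promoter sequences are shown, from 250 bases before to 50 bases after the start of the gene. RefSeq on GRCm38.p6 gave promoters for 5 of the 9 members, and the 3 shown are those that hold the motif marked below. Capitals mark GAGGAA, the core of the motif of PU.1, the transcription factor of macrophages and microglia, on either strand (on the opposite strand it reads TTCCTC). The C1qb promoter lies at chr4:136886151-136886450 and the C1qc promoter at chr4:136892865-136893164, both on the minus strand, and the Cd59a promoter at chr2:104095551-104095850 on the plus strand.
C1qb: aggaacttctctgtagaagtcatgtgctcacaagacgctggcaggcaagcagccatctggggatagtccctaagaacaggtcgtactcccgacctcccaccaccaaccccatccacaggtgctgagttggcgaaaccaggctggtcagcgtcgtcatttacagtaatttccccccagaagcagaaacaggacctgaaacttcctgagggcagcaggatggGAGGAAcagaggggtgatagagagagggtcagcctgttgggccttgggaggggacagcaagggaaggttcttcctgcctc
C1qc: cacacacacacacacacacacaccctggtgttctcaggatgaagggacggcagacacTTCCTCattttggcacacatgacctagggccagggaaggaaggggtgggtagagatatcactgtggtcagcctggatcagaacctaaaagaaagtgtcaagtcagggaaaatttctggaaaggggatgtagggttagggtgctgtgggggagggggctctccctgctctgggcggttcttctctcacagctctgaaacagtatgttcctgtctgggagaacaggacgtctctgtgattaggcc
Cd59a: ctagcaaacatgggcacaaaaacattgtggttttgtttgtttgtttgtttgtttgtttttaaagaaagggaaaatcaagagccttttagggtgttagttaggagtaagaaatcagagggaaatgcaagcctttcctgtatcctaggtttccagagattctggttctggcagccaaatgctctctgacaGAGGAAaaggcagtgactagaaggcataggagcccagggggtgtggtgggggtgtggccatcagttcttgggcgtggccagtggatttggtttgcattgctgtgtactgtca
The 3 promoters shown were chosen because they hold the motif, and that of Cd59a, the member at substantial levels in rod TRAP, is among them. Over the 5 promoters, GAGGAA on either strand was found in 3, against 28.3% of all 32851 promoters of the same length, a difference that was not tested. It was not found in those of C3 and Cd55, which are not shown, though both genes were near 0 in rod TRAP too. GGATTA, the core of the motif of the photoreceptor factor CRX, was found in none of the 5 promoters on either strand, against 7.06% of all promoters.

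The scaled counts, read counts that the authors had brought to a common total within each fraction, summed to 17096515 to 17097707 in the 6 rod TRAP libraries and to 17860761 to 17862326 in the 6 retina libraries. Of the rod markers 14 of 14 were higher in rod TRAP than in retina, and of the Müller glia markers 12 of 12 were lower, in each genotype. Abca4 itself had 195, 365 and 13156 scaled counts in Abca4Ko rod TRAP replicates 1 to 3, against 53193 to 61017 in the controls. In Abca4Ko retina it had 153, 366 and 8124 scaled counts, against 37619 to 38929 in the controls. The libraries labelled Abca4Ko replicate 3 therefore kept part of the Abca4 signal in both fractions, and results are given with and without them.

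In control retina the members covered a wide range of levels, compared here in TPM, the deposited measure that is scaled by transcript length and library total. Cd59a was highest with 54.5 ± 5.97 TPM (SD, n = 3). Serping1 followed with 26.2 ± 3.90 TPM, C1qa with 23.3 ± 4.96, C1qb with 19.7 ± 5.52 and C1qc with 17.3 ± 2.26. These 4 formed a tier in which each overlapped the next in its libraries. C4b had 8.5 ± 1.35 TPM and was separate from its neighbours, and the lowest tier held C3 with 2.10 ± 0.964 TPM, Cfi with 1.47 ± 0.569 and Cd55 with 0.600 ± 0.361, which overlapped each other in turn. In Abca4Ko retina Cd59a was again highest with 53.4 ± 19.0 TPM, and Cd55 lowest with 0.200 ± 0.100 TPM. C1qa, Serping1 and C1qb lay close together there, at 16.1 ± 4.8, 14.9 ± 7.75 and 14.6 ± 3.76 TPM, with the C1qc level at 10.1 ± 2.25 TPM. In rod TRAP only Cd59a had more than trace levels, with 89.8 ± 4.59 TPM in controls and 81.4 ± 30.1 TPM in Abca4Ko, while no other member had a mean above 0.5 TPM.

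**Figure D1:**
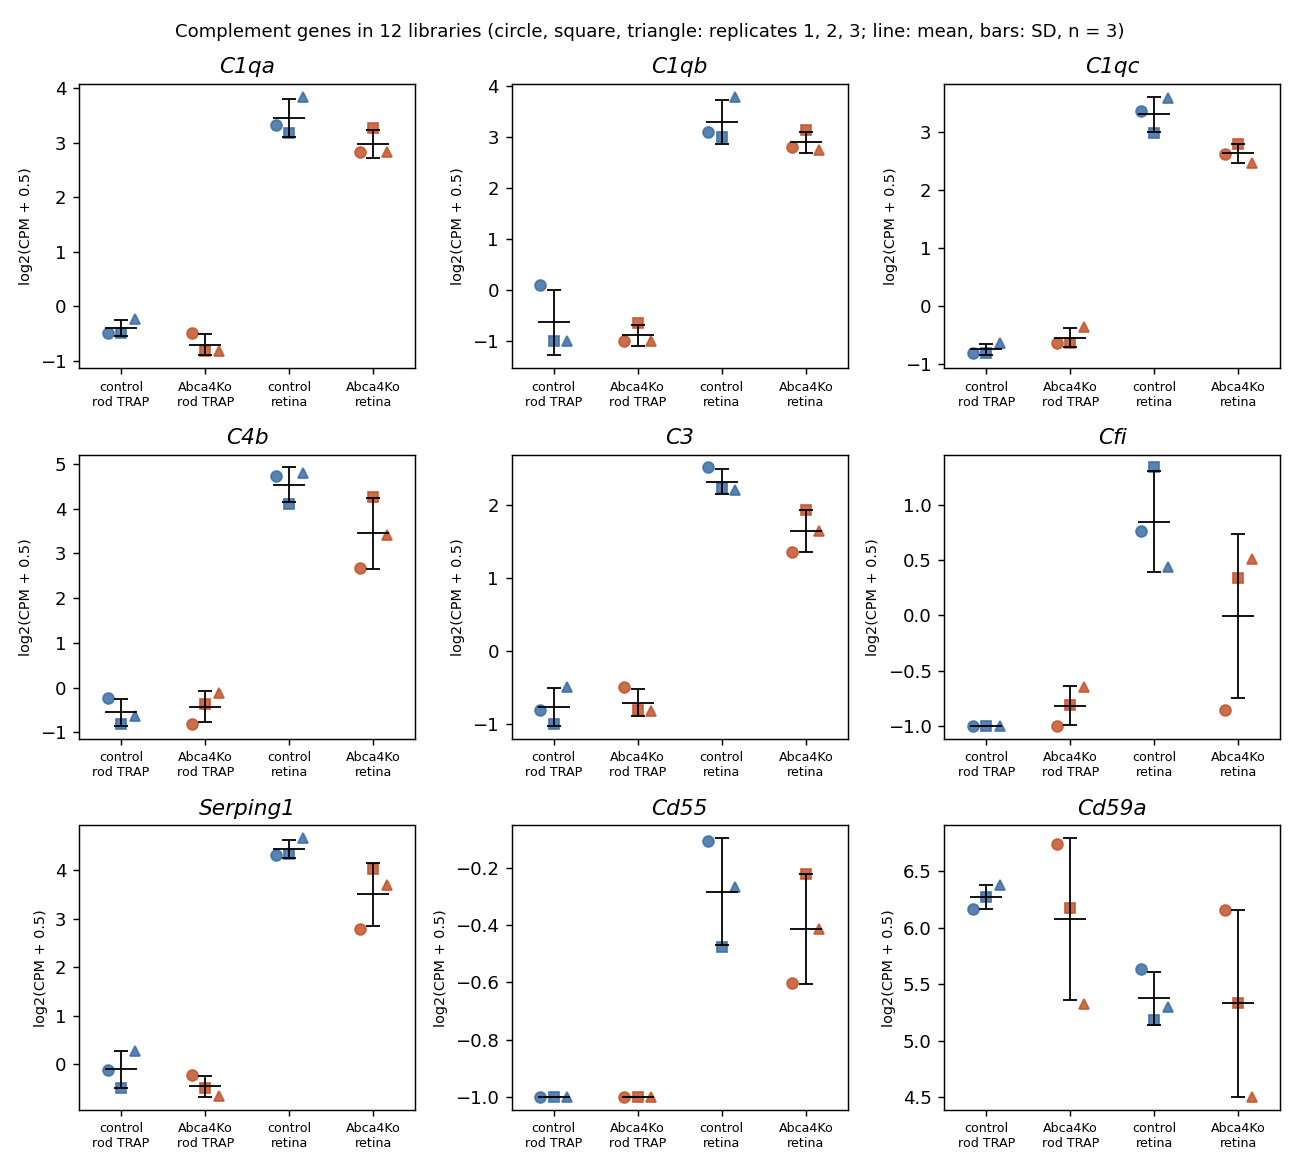
Level of each of the 9 members in the 12 libraries, as log2(CPM + 0.5) after trimmed mean scaling, with an axis of its own for each gene. Points are libraries, lines are means and bars are SD of 3 libraries. In rod TRAP all members but Cd59a sit between -1, the value for 0 counts, and the value for 0.710 CPM, reached by Serping1 in control replicate 3. Cd55 and the Cfi value of Abca4Ko replicate 1 lie in the same low range in retina. Cd59a is higher in rod TRAP in controls.

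The comparison of rod TRAP with retina asks which complement messages rods themselves translate. In controls 8 members could be tested and 8 passed, 7 of them lower in rod TRAP and Cd59a higher. Of all 16286 genes tested in this comparison 75.4% passed in either direction and 38.8% were lower in rod TRAP, so that passing is by itself common here. In Abca4Ko 7 members could be tested and 6 passed, all 6 lower in rod TRAP, against 64.1% of 16036 genes in either direction and 33.7% lower. The members that were lower had at most 10 scaled counts in any rod TRAP library and passed the filter through retina alone. They could hardly come out other than lower, so that these counts of members are no separate result. The members' median log2 difference was -3.83 in controls, with -0.03 for all genes tested, and -3.69 in Abca4Ko, with 0.00437 for all genes. Both comparisons were made by limma on log2(CPM + 0.5), in which CPM is the scaled count relative to the library total after trimmed mean scaling and a gene passes at a Benjamini-Hochberg adjusted p under 0.05. Differences of genes near 0 are understated on that scale. Without both libraries of Abca4Ko replicate 3, 6 of 7 members again passed in Abca4Ko, all lower in rod TRAP.

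The 3 C1q chains were close to 0 in rod TRAP. C1qa had 3, 3 and 5 scaled counts in the control rod TRAP libraries and 200, 194 and 294 in control retina. In Abca4Ko it had 3, 1 and 1 in rod TRAP and 126, 204 and 158 in retina. No rod TRAP library came near any retina library. C1qb had 8, 0 and 0 scaled counts in control rod TRAP and 168, 170 and 281 in control retina, and 0, 2 and 0 against 123, 184 and 147 in Abca4Ko. C1qc had 1, 1 and 2 in control rod TRAP and 206, 169 and 243 in control retina, and 2, 2 and 4 against 107, 145 and 121 in Abca4Ko. The separation was thus the same in kind for all chains. Summed over the 3 libraries of a group, the rod TRAP level was 2.46% of the retina level for C1qa, 1.99% for C1qb and 0.998% for C1qc in controls, and 1.56%, 0.672% and 3.27% in Abca4Ko. The log2 differences in controls were -3.79 ± 0.227 (SE) for C1qa, -3.87 ± 0.319 for C1qb and -4.01 ± 0.217 for C1qc, and the largest limma adjusted p among the 3 was 1.87e-07.

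C4b, which encodes the C4 that C1s cleaves, had 5, 1 and 2 scaled counts in control rod TRAP and 542, 379 and 578 in control retina. In Abca4Ko it had 1, 4 and 6 in rod TRAP and 111, 415 and 244 in retina. It had the largest fitted difference of all members in controls, of of -5.04 ± 0.242 (SE, limma adjusted p = 1.74e-09) on the log2 scale, and fell by 3.88 ± 0.377 in Abca4Ko (limma adjusted p = 6.28e-06). C3 had 1, 0 and 3 scaled counts in control rod TRAP and 109, 96 and 87 in control retina, and 3, 1 and 1 against 39, 74 and 63 in Abca4Ko. Its fractions did not overlap either, with log2 differences of -3.03 ± 0.211 in controls (limma adjusted p = 3.95e-08) and -2.35 ± 0.234 in Abca4Ko (limma adjusted p = 7.52e-06).

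The soluble regulators followed the components. Serping1 had 6, 3 and 10 scaled counts in control rod TRAP and 409, 448 and 525 in control retina, and 5, 3 and 2 against 121, 356 and 300 in Abca4Ko. The rod TRAP level was 2.12% of the retina level in controls and 1.96% in Abca4Ko, with log2 differences of -4.48 ± 0.227 (SE, limma adjusted p = 2.70e-09) and -3.97 ± 0.327 (limma adjusted p = 1.96e-06). Cfi was scarce everywhere, with 25, 46 and 18 scaled counts in control retina and 1, 17 and 22 in Abca4Ko retina. It was at 0 in the 3 control rod TRAP libraries. With 3 counts over the group taken as the floor, it was at least 19.2-fold lower there than in retina. The lower limit of the exact 95% interval was 15.3-fold. In Abca4Ko rod TRAP it had 0, 1 and 2 scaled counts, a ratio of retina to rod TRAP of 8.74 with an exact 95% interval of 2.78 to 44.1. The interval takes scaled counts as counts and leaves out the spread between libraries. Cfi did not reach the minimum for testing there.

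Cd55, a membrane regulator, was the scarcest member. It had 9, 5 and 7 scaled counts in control retina and 3, 8 and 6 in Abca4Ko retina, and was at 0 in all 6 rod TRAP libraries. With the same floor it was at least 4.54-fold lower in rod TRAP in controls and at least 3.71-fold lower in Abca4Ko. It reached the minimum of 10 scaled counts in no library and was not tested.

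Cd59a, the other membrane regulator, was the exception. It had 997, 1077 and 1162 scaled counts in control rod TRAP and 1029, 815 and 824 in control retina. After trimmed mean scaling this was 76.9 ± 5.63 CPM in rod TRAP against 41.3 ± 7.02 CPM in retina (SD, n = 3), without overlap. The log2 difference in controls was 0.99 ± 0.141 (SE, limma adjusted p = 3.11e-05). With all 12 libraries in 1 fit it was 0.90 and just missed the threshold (limma adjusted p = 0.0505). In Abca4Ko it had 1487, 1027 and 569 scaled counts in rod TRAP and 1345, 891 and 529 in retina, so that the libraries of 1 fraction spread more than the fractions differed. The log2 difference there was 0.75 ± 0.497 (limma adjusted p = 0.229) and did not pass. Rod TRAP and retina libraries of the same number moved together over all genes, and within such pairs Cd59a was higher in rod TRAP in 6 of 6 pairs, by 0.53, 1.09 and 1.07 on the log2 scale in controls and by 0.58, 0.84 and 0.82 in Abca4Ko. When these pairs entered the fit as a replicate block, the Abca4Ko difference of 0.75 ± 0.133 passed (limma adjusted p = 4.05e-05). Under the authors' own scaling the median of all genes shifted to -0.62 in controls and -0.49 in Abca4Ko, and Cd59a stood at 0.34 and 0.21, still above that median and above 0.

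**Figure D2:**
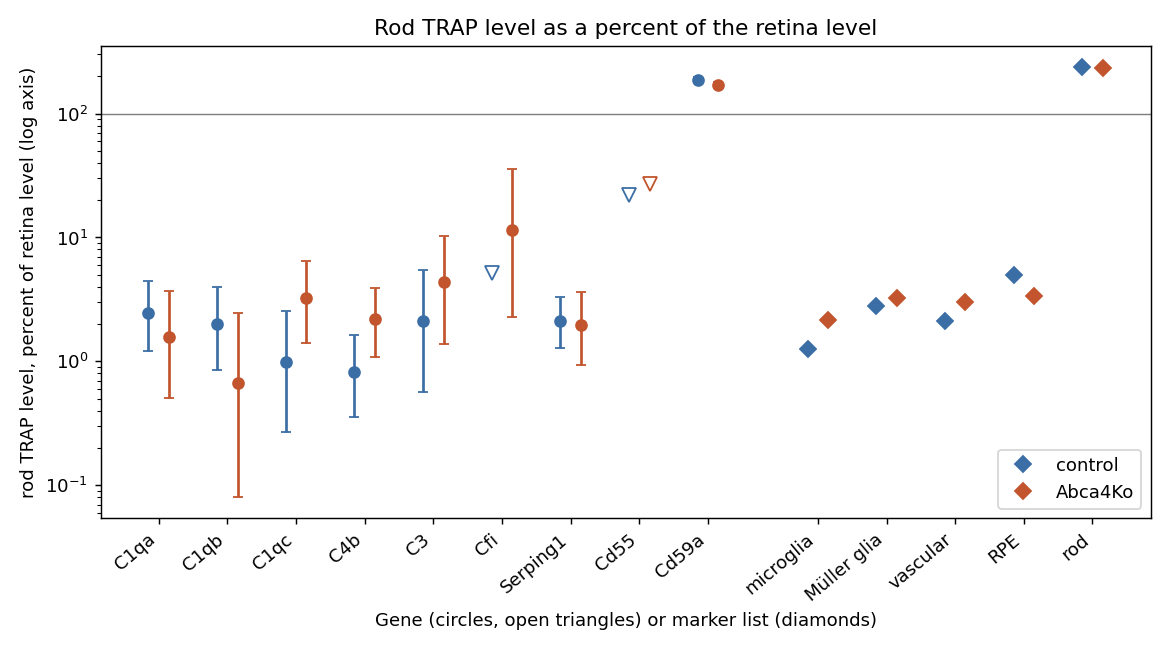
Rod TRAP level as a percent of the retina level, on a log axis, for each member and, as diamonds, for the median gene of 5 marker lists. Circles carry 95% exact intervals that cover counting error only, and open triangles are upper limits for genes at 0 in rod TRAP. The C1q chains, C4b, C3 and Serping1 lie between 0.672% and 4.34%, near the medians of microglia, Müller glia, vascular and RPE markers (1.26% to 4.94%), while Cd59a, at 187% in controls and 170% in Abca4Ko, lies above 100% with the rod markers.

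Marker genes of other cells were left in rod TRAP at similar low shares. The median rod TRAP level was 1.26% of the retina level for the 10 microglia markers with at least 1 CPM in control retina, 2.79% for 12 Müller glia markers, 2.13% for 15 vascular markers and 4.94% for 10 RPE (retinal pigment epithelium) markers. For the 14 rod markers it was 236%. In Abca4Ko the medians were 2.16% for microglia, 3.28% for Müller glia, 3.04% for vascular, 3.39% for RPE and 235% for rod markers. Of the 15 microglia markers 14 were under 10 scaled counts in every rod TRAP library, and 5 were at 0 in all control rod TRAP libraries and 2 in all Abca4Ko ones. What the trace counts of C1q, C4b, C3 and Serping1 in rod TRAP came from was not tested.

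The comparison of Abca4Ko with control retina asks whether complement messages change when ABCA4 is lost. No member passed by limma: 0 of 8 tested, against 0.106% of 16964 genes. Of the 8 members 5 had an unadjusted p under 0.05, against 12.0% of all genes, and 3 had it without control replicate 1 or without control replicate 3. All 8 differences were below 0 in the fit to all 6 libraries, against 52.2% of all genes, with a member median of -0.68 on the log2 scale and a median of all genes of -0.02. Cd59a moved above 0 without Abca4Ko replicate 3 and without control replicate 1. In bulk tissue, fewer cells of a type and less RNA per cell cannot be told apart. For C1qc, C3 and Serping1 the 3 Abca4Ko libraries all lay below the 3 controls, which held for 9.47% of all genes.

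Among the C1q chains the differences were -0.47 ± 0.245 (SE) for C1qa, -0.40 ± 0.258 for C1qb and -0.68 ± 0.229 for C1qc on the log2 scale. The C1qa and C1qb libraries of the genotypes overlapped, and without control replicate 3 their differences were -0.26 and -0.14. C1qc had 107, 145 and 121 scaled counts in Abca4Ko retina, all below the 206, 169 and 243 of the controls. Within a library the C1qc level in TPM was 0.654 to 0.714 of the C1qb level in Abca4Ko and 0.762 to 1.06 in controls, without overlap. In scaled counts this ratio did overlap between genotypes. C1qc and C1qb had 107 and 123 scaled counts in Abca4Ko replicate 1 and 243 and 281 in control replicate 3. The ratio of C1qa to C1qb in TPM was 1.05 to 1.15 in Abca4Ko and 1.12 to 1.26 in controls, with overlap. The summed C1q level in CPM was 28.7% to 32.7% of the summed level of the 15 microglia markers in Abca4Ko retina and 32.1% to 43.3% in control retina, with overlap.

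The largest differences were those of C4b, with -1.10 ± 0.365 (SE) on the log2 scale, Serping1, with -0.93 ± 0.304, and Cfi, with -0.91 ± 0.407, and that of C3 was -0.69 ± 0.240. None passed, and the limma adjusted p was 0.400 for C4b, C3, C1qc and Serping1 and 0.414 for Cfi. The lowest C4b value was that of Abca4Ko replicate 1, with 111 scaled counts against 244 to 578 in the other 5 retina libraries. The same library was lowest for Serping1, with 121 scaled counts against 300 to 525, for C3, with 39 against 63 to 109, and for Cfi, with 1 against 17 to 46. It was the lowest for 5 of the 9 members after scaling, and for 27.1% of 16937 genes. The other 4 members, C1qa, C1qb, C1qc and Cd59a, were lowest in Abca4Ko replicate 3, as were 25.6% of the genes. Without Abca4Ko replicate 1 the differences were -0.69 for C4b, -0.55 for Serping1, -0.43 for Cfi and -0.52 for C3, against -0.66 for C1qc, and the member median was -0.48. Without Abca4Ko replicate 3, the library that kept Abca4 signal, the median was -0.66, and C4b stood at -1.09.

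**Figure D3:**
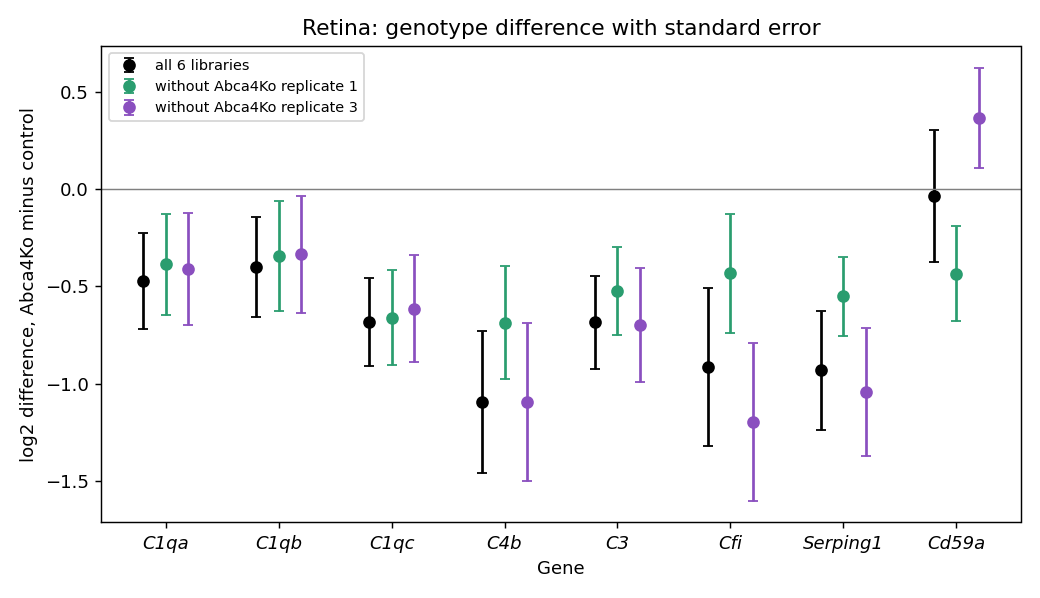
Log2 difference between Abca4Ko and control retina for the 8 members tested, with SE, from all 6 libraries and without Abca4Ko replicate 1 or 3. No difference passed the test. C4b moves from -1.10 to -0.69 without replicate 1, and Cd59a from -0.04 to 0.37 without replicate 3.

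Marker lists of other cells were set beside these values. In Abca4Ko replicate 1 the summed level of the 12 RPE markers was 88.3 CPM against 231 to 749 CPM in the other 5 retina libraries, and that of the 15 vascular markers was 147 CPM against 274 to 408 CPM. The RPE list did not move as a whole. By CPM this library was the lowest for 6 of its 12 genes, Best1 and the melanocyte and pigment genes Tyr, Tyrp1, Pmel, Dct and Mlana, within the range of the others for 4, Ttr, Rgr, Rdh5 and Slc6a20a, and the highest for 2, the visual cycle genes Rpe65 and Lrat. Pmel, a pigment granule protein, had 38 scaled counts in it and 1146 to 4914 in the others, while Rpe65 had 157 and 24 to 116. Of the 15 vascular markers it was the lowest for 12, among them Acta2 of smooth muscle with 21 scaled counts against 543 to 1616, and within the range of the others for Flt1, Plvap and Rgs5. The summed microglia level in the same library was 61.5 CPM against 62.1 to 89.2 CPM, Müller glia markers had 3869 CPM within the 3394 to 5244 CPM of the others, and rod markers, at 123456 CPM, were above the 66180 to 107066 CPM of the others. Across both groups, 12 of 12 RPE markers differed in the same direction as the members, with a median of -0.73, as did 5 of 5 blood genes tested with a median of -0.93, 11 of 15 microglia markers with a median of -0.23, 10 of 15 vascular markers with -0.35 7 of 12 Müller glia markers with -0.02 and 9 of 10 genes of glial reactivity with -0.52. By group the summed RPE level ranged from 88.3 to 399 CPM in Abca4Ko and from 299 to 749 CPM in controls, the vascular level from 147 to 408 and from 274 to 354 CPM, the microglia level from 61.5 to 72.8 and from 72.1 to 89.2 CPM, and the blood level from 56.1 to 131 and from 80.9 to 223 CPM. The share of pigmented or vascular tissue in the members' differences was not tested.

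**Figure D4:**
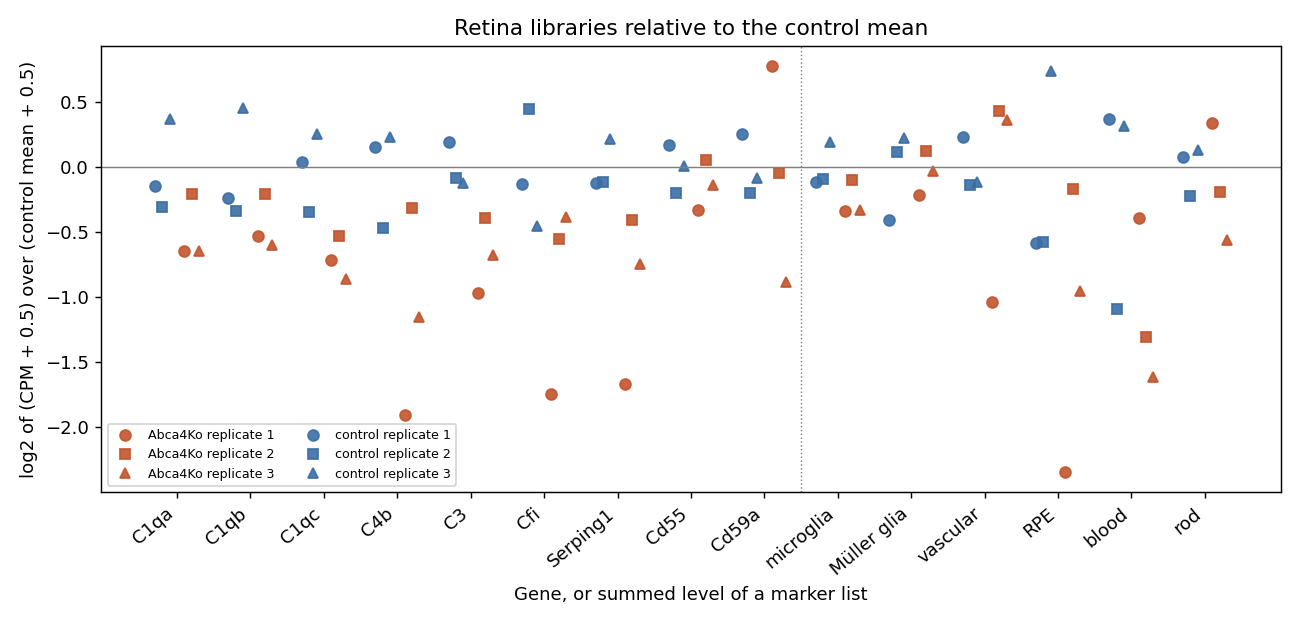
Each retina library relative to the control mean, as log2 of CPM + 0.5, for the 9 members and for the summed levels of 6 marker lists to the right of the dotted line. Abca4Ko replicate 1 is lowest for C4b, Serping1, Cfi and C3 and for the summed RPE and vascular levels, and highest for Cd59a and the summed rod level. The summed RPE level hides 2 of 12 genes that were highest in this library.

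Cd59a spread widely within Abca4Ko, and its genotype difference passed in neither fraction. In retina the Abca4Ko libraries had 1345, 891 and 529 scaled counts against 1029, 815 and 824 in controls, for a log2 difference of -0.04 ± 0.339 (SE, limma adjusted p = 0.964). In rod TRAP they had 1487, 1027 and 569 against 997, 1077 and 1162, for a difference of -0.16 ± 0.389 (limma adjusted p = 0.919). Abca4Ko replicate 1 was the highest and replicate 3 the lowest library of its fraction in both cases. Replicate 3 is the one that kept Abca4 signal, and without it the difference was 0.23 in rod TRAP and 0.37 in retina, neither of which passed. In rod TRAP Cd59a was the only member that could be tested, so that 0 of 1 passed, with an unadjusted p above 0.05, against 1.13% of 13104 genes that passed and 10.4% that had an unadjusted p under 0.05. The other 8 members had at most 10 scaled counts in any rod TRAP library, and a genotype difference of theirs in rods was not detectable at this depth.

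The interaction of genotype and fraction asks whether a genotype difference depends on the fraction. By limma on all 12 libraries 0 of 8 members passed, against 0.00579% of 17273 genes, and 4 of 8 had an unadjusted p under 0.05, against 11.3% of all genes. The largest estimate was that of C4b, with 1.22 ± 0.482 (SE) on the log2 scale (limma adjusted p = 0.407). In rod TRAP 7 of the 8 members had at most 10 scaled counts in any library and passed the filter through retina alone. For some of the 7 the estimate largely repeats the retina difference with its sign turned. These were C4b (-1.10 and 1.22), Cfi (-0.91 and 1.03), C3 (-0.69 and 0.74) and C1qc (-0.68 and 0.88). It was smaller in size than the retina difference for C1qa (-0.47 and 0.17), C1qb (-0.40 and 0.15) and Serping1 (-0.93 and 0.58). Rod TRAP values near 0 enter all 7 estimates, so that none is a separate result on rods. The count at an unadjusted p under 0.05 was 1 without control rod TRAP replicate 2, without Abca4Ko retina replicate 1 or without both libraries of Abca4Ko replicate 3, and 2 without Abca4Ko rod TRAP replicate 3, control rod TRAP replicate 1 or control retina replicate 1. With the pairs of same-numbered libraries as a block, 0 of 8 passed as well.

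Of 43 other complement genes, 7 were at 0 in all libraries, among them Cd55b, the near copy of Cd55. In controls 19 of them could be tested between fractions, of which 16 were lower in rod TRAP and 1, Vtn, was higher, with a median log2 difference of -1.62, against -0.03 for all genes. Of all genes 75.4% passed and 38.8% were lower. In Abca4Ko 14 could be tested, of which 10 were lower and Vtn was higher, with a median of -1.58, against 0.00437 for all genes, of which 64.1% passed and 33.7% were lower. Vtn encodes vitronectin, an inhibitor of the terminal complex, and had 34153, 34785 and 35109 scaled counts in control rod TRAP and 27805, 22783 and 31169 in control retina. At 2540 ± 12.3 TPM in control rod TRAP it stood far above Cd59a, and its log2 difference between fractions was 1.07 ± 0.141 (SE, limma adjusted p = 1.56e-05) in controls and 1.24 ± 0.223 (limma adjusted p = 0.000564) in Abca4Ko. The largest falls in controls were those of Clu, which encodes clusterin, another fluid-phase inhibitor of the terminal complex, with -3.92 ± 0.166, of Susd4 with -3.42 ± 0.210 and of Csmd1 with -2.56 ± 0.275, the latter 2 encoding membrane proteins with complement control domains. Clu had 867, 615 and 728 scaled counts in control rod TRAP and 15998, 16944 and 22523 in control retina. In Abca4Ko the largest falls were those of Clu with -3.86 ± 0.193, Susd4 with -3.29 ± 0.195 and Csmd2 with -2.83 ± 0.555. Of the complement receptors 3 of 9 could be tested in controls and were lower in rod TRAP. These receptors and some of the other lower genes had under 10 scaled counts in every control rod TRAP library. They too passed the filter through retina alone. Between genotypes none passed by limma, with 0 of 20 tested in retina, of which 2 had an unadjusted p under 0.05, and 0 of 8 in rod TRAP, of which 0 had. Of all genes 0.106% passed in retina and 12.0% had an unadjusted p under 0.05, and in rod TRAP 1.13% and 10.4%. The list's median difference in retina was -0.29, against -0.02 for all genes.

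Near-identical copies can draw reads from a member. Of the distinct 50-base windows in GENCODE M21 transcripts, C4b shared 34.6% with C4a, Cd59a shared 3.87% with Cd59b and Cd55 shared 8.00% with Cd55b, whereas C1qa, C1qb, C1qc, C3, Cfi and Serping1 shared none with any other gene. C4a had 17, 27 and 17 scaled counts in control retina and 15, 15 and 14 in Abca4Ko retina, far below C4b. Cd59b had 22, 23 and 35 in control retina and 21, 22 and 16 in Abca4Ko retina, far below Cd59a. How the authors assigned reads that fit several genes is not given in the sources used here, so the C4b values are uncertain to that extent.

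The genes whose profile over the 12 libraries was most like that of each member were found by the smallest root mean square difference of centred log2(CPM + 0.5), among 14877 genes with at least 1 CPM in retina (14878 for Cfi and Cd55, which are not among them). Nearest were Rhoj, Bc1 and Clu for C1qa (differences of 0.124, 0.174 and 0.179), Dipk1b, Tnfrsf1a and Ppfia4 for C1qb (0.141, 0.192 and 0.219), and Bc1, Gstm7 and Trim46 for C1qc (0.169, 0.214 and 0.217). For C4b they were Folr1, Col18a1 and Hrh3 (0.219, 0.339 and 0.341), for C3 Slc39a12, Hspb1 and Prph (0.179, 0.185 and 0.186), and for Serping1 Tmem176a, Adgrb2 and Grm4 (0.258, 0.268 and 0.278). For Cd59a they were Gm2233, Gm49300 and Gm30198 (0.224, 0.230 and 0.235), for Cfi 4930579G18Rik, Gm13563 and ENSMUSG00000120630 (0.247, 0.257 and 0.270), and for Cd55 Dvl1, Acot9 and Slc2a8 (0.103, 0.104 and 0.111). The C1q chains shared Bc1 as a neighbour of C1qa and C1qc, and no chain had another chain among its 3 nearest genes. For all members but Cd59a the rod TRAP values lie near 0, so that the drop between fractions and counting error weigh on the distance. Whether the chains vary together cannot be read from it.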

How the data were processed

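RNA-Seq libraries from retina lysate and rod TRAP, made from 5 ng and 10 ng of RNA with a low-input kit, were grouped by the labels. The submitters' processing notes name CASAVA 1.8.2, HISAT2, edgeR, DESeq2 and GRCm39; the counter and annotation are not given in the sources used here. The authors deposited scaled counts, treated here as a score because each library had been multiplied by 1 factor and rounded, which bars count models, and a table of TPM per gene. Library totals were corrected by trimmed mean scaling, TMM (trims of 0.3 and 0.05) and fitted with limma 3.58.1 (trend, robust) in R 4.3.3, two-sided, on genes with at least 10 scaled counts in at least 3 libraries; the fit was tested on simulated data. Intervals and floors take the scaled counts as counts, so that they are approximate. They leave out the spread between libraries, and PCR duplicates are not known. Retina and rod TRAP libraries of the same number were taken as pairs, since their deviations from the group means correlated in every pair (r of 0.160 to 0.433, across 17273 genes); numbers did not pair the genotypes (r of -0.394 to 0.012). Members and lists were chosen with earlier results of these data known. Named are all members, Abca4, the near copies, up to 3 largest rises and falls among the other complement genes that passed without overlap at 1 CPM or more, and the 3 nearest profiles; markers are named beside results. Alternatives were other scalings, pseudocounts, filters and variance models, TPM, a block, all 12 libraries in 1 fit and leaving out libraries. Python 3.11.15 (numpy 2.4.6, scipy 1.17.1, pandas 2.3.3, matplotlib 3.10.9) was used elsewhere. Values of some single genes of the lists are not reported here.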

Additional observations from a re-analysis of the deposited data

How the results depend on the processing

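The number of members that passed between genotypes in retina and in rod TRAP, and for the interaction, was 0 under every alternative run. Between fractions in controls it was 8 of 8 with the replicate block, 7 of 8 with all 12 libraries in 1 fit, where Cd59a missed, and 9 of 9 without the filter on low values, which let Cd55 in. In Abca4Ko it was 7 of 7 with the replicate block, where Cd59a passed, 8 of 9 without the filter, where Cfi and Cd55 passed, and 7 of 8, all lower and with Cfi among them, with all 12 libraries in 1 fit or without Abca4Ko retina replicate 1. With the replicate block it was 0 of 1 in rod TRAP, 0 of 8 in retina and 0 of 8 for the interaction, and the block changed no other call. Where a library was left out, the filter asked for as many libraries as the smallest group held. Leaving out 1 library turned the sign of some differences that had not passed. For Cd59a the lowest and highest values were -0.52 and 0.23 for the genotypes of rod TRAP, -0.44 and 0.37 for those of retina, and -0.57 and 0.23 for the interaction. The interaction of C1qa ranged from -0.026 to 0.32 and that of C1qb from -0.089 to 0.52. Without both libraries of Abca4Ko replicate 3, 6 of 7 members were lower in rod TRAP in Abca4Ko and 0 of 8 passed the interaction. Of 503 single-gene values recomputed, 491 kept their direction and their side of the threshold, 10 changed sign, 1 was lost and 1 was gained. The smallest limma adjusted p of any member in retina ranged from 0.114 to 0.938 over the alternatives. Group sizes of 3 and, in rod TRAP, counts near 0 limit what could be detected.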
